A study of Homo sapiens with 97 samples.

Results

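The 7 transcripts described here come from genes of the splicing-control machinery: the CDC-like kinases CLK1, CLK2, CLK3 and CLK4, the L-type cyclins CCNL1 and CCNL2, and the cyclophilin NKTR. They were chosen by name as transcripts known to keep introns in the nucleus, and are 7 of 60675 gene identifiers in each of the 5 count tables, all of which hold every member. The study mapped RNA by place in HEK 293T cells, a human embryonic kidney line, with APEX-seq: a peroxidase (APEX2) fused to a targeting sequence tags nearby RNA with biotin when biotin-phenol and hydrogen peroxide are given, and the tagged RNA is enriched and sequenced. The question asked of these genes was in which compartments their RNA was found, and whether translation drugs or loss of microtubules changed that. The data were 97 libraries in 49 groups.

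In every APEX group the cells stably expressed 1 of 9 fusions. Apart from nocodazole at 6 min, 9 min and 2 h, each labelled group (hydrogen peroxide given) had an unlabelled group of the same cells. The unlabelled cells were carried through the same steps without hydrogen peroxide. NLS marks the nucleus, NIK the nucleolus, LMA the nuclear lamina, NucPore the nuclear pore, NES the cytosol, ERM the cytosol-facing side of the endoplasmic reticulum membrane, KDEL its lumen, OMM the outer mitochondrial membrane and MITO the mitochondrial matrix. Cells with NES or OMM were also treated with cycloheximide, which stalls translating ribosomes, puromycin, which releases nascent chains, or CCCP, which collapses the mitochondrial membrane potential. The same constructs were followed in nocodazole, which takes apart microtubules, for 3, 6, 9 or 30 min or 2 h, with unlabelled libraries at 3 and 30 min. Nuclear and cytosol fractions were made by biochemical fractionation, and MITO had libraries of total RNA beside the polyadenylated RNA used in all other groups. Groups had 2 libraries each, stated to be biological replicates, apart from 1 technical repeat of a MITO library that was left out. A cell line that stably carries a fusion is a model in which the enzyme itself is an added protein, and labelling reports RNA near that fusion, not the whole compartment.

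CLK kinases phosphorylate the arginine-serine-rich domains of SR proteins, the splicing factors that define exons, and so set how SR proteins leave nuclear speckles for sites of splicing. L-type cyclins carry an arginine-serine-rich domain as well and pair with CDK11 kinases in speckles. NKTR joins a cyclophilin (prolyl isomerase) domain to a long arginine-serine-rich tail and was named for natural killer cells, although it is widely expressed. A detained intron is one left in an otherwise finished, polyadenylated transcript that stays in the nucleus; CLK transcripts are textbook cases, in which the pool with introns can be spliced later.

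Where these transcripts can keep an intron is shown by the 5′ splice sites below, chosen because introns 3 and 4 of the main transcript are kept whole in annotated transcripts of CLK1, CLK4 and CLK3. Each is written 5′ to 3′ on the gene's strand as 12 exon bases followed by 18 intron bases, read from GENCODE 29 transcripts (GRCh38). Capitals mark the last 3 bases of the exon and the first 6 of the intron.
CLK1 intron 4: taagtgcaaGATGTATAGaatatttttcaa
CLK4 intron 4: taagagcaaGATGTATAGaatatttttcaa
CLK3 intron 4: tccaagagcGATGTACAGccacctttcgta
CLK1 intron 3: cgttcacatGGGGTATGAacgtttttaaaa
CLK4 intron 3: cagtcacgtTCGGTATGAttggttttgttt
CLK3 intron 3: agcgcctccTCGGTGAGTggtagccagagt
At intron 4, CLK1 and CLK4 were identical at 29 of the 30 bases and at 9 of the 9 capitals. CLK3 matched CLK1 at 14 of 30 bases and 8 of 9 capitals, and CLK4 at 15 of 30 bases and 8 of 9 capitals. The 5′ sites of intron 3 were less alike, with 18 of 30 bases shared by CLK1 and CLK4, 7 by CLK1 and CLK3 and 9 by CLK4 and CLK3. At the 3′ sites, not printed here, CLK1 and CLK4 shared 21 of 30 bases at intron 3 and 19 at intron 4. CLK1 and CLK3 shared 12 there at intron 3 and 22 at intron 4, and CLK4 and CLK3 shared 13 and 18. Intron 4 spans chr2:200859747-200860124 in CLK1 (378 bp), chr5:178616949-178617343 in CLK4 (395 bp) and chr15:74622217-74622493 in CLK3 (277 bp). Intron 3 spans chr2:200860216-200861237 in CLK1 (1022 bp), chr5:178617435-178618555 in CLK4 (1121 bp) and chr15:74620226-74622119 in CLK3 (1894 bp).

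The annotation gave the members many transcripts of the class retained intron. CCNL1 had 16 among 26 transcripts, NKTR 13 among 19, CCNL2 9 among 20, CLK1 8 among 15, CLK3 8 among 27, CLK4 7 among 15 and CLK2 0 among 7. Over the 14825 protein-coding genes tested in the 9-construct table the median was 1 such transcript, 45.4% had none, and 5.03% had 7 or more. CCNL1 exceeded 99.7% of those genes, NKTR 99.4%, CCNL2 97.6%, CLK1 and CLK3 96.5% and CLK4 95.0%, while CLK2 lay among the genes with none. Kept whole within such transcripts were 19 introns of 5 members: introns 2, 3, 4 and 7 of CLK1, 3 and 4 of CLK3, 3, 4, 11 and 12 of CLK4, 2, 4, 5, 6, 7 and 8 of CCNL1, and 4, 5 and 7 of NKTR. They were 86 to 1894 bp long (median 536) with 25.6% to 58.5% GC (median 32.6), and 19 of 19 began with GT and ended with AG. No retained-intron transcript of CCNL2 kept a whole intron of its main transcript. The deposited counts are per gene, so reads from intron-keeping and spliced transcripts were not separated in anything below.

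In GRCh38 the genes lie at chr2:200853009-200864744 on the minus strand (CLK1, ENSG00000013441), chr1:155262868-155278491 minus (CLK2, ENSG00000176444), chr15:74598500-74645414 plus (CLK3, ENSG00000179335), chr5:178602664-178630615 minus (CLK4, ENSG00000113240), chr3:157146508-157160760 minus (CCNL1, ENSG00000163660), chr1:1385711-1399328 minus (CCNL2, ENSG00000221978) and chr3:42600614-42648741 plus (NKTR, ENSG00000114857). Some reads can be shared with neighbours on the other strand: HCN3 beside CLK2 (median 20.6 CPM, the counts of a gene as a share of its library, scaled to the same total in each library), EDC3 beside CLK3 (130 CPM) and SEC22C beside NKTR (95.5 CPM). The libraries were stranded, but the strand setting of the counting is not given in the sources used here, so CLK3 and NKTR values are the least certain on this ground. Processed copies named CLK2P1, CLK3P2 and CCNL2P1 could also take reads from their parents.

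Library totals, in M counts (mega-counts), were 9.33 to 76.7 in the 9-construct table, 35.0 to 45.0 M counts in the fractions, 22.7 to 55.8 M in the drug table, 15.5 to 34.0 M in the nocodazole table and 2.84 to 76.7 M in the MITO table. Some libraries were of low complexity, lacking any count for more than 2% of well-expressed genes (those whose mean reached 5 CPM): 7 of 36 in the 9-construct table, among them both NIK labelled libraries (6.06% and 2.94%), ERM labelled replicate 1 (5.02%), OMM unlabelled replicate 2 (4.06%) and NES unlabelled replicate 1 (3.37%), 3 of 24 in the drug table and 6 of 28 in the nocodazole table, where the highest lacked 16.3%. HEK 293T markers summed to 382 to 1169 CPM over the 36 construct libraries (median 833), mostly from VIM (median 589 CPM). Among them KRT8 (median 7.96 CPM) and PAX2 (2.07 CPM, no count in 8 of 36 libraries) were low. Natural killer markers, checked because of the name NKTR, summed to 0 to 1.12 CPM. Single ones had no count in 30 (GNLY) to 35 (NKG7) of 36 libraries. Fibroblast markers summed to 0.05 to 34.0 CPM, mostly COL1A1 (median 11.3 CPM). The leukocyte marker PTPRC reached 5.89 CPM and the hepatocyte marker ALB 3.95 CPM, both with a median of 0. Nuclear labelling raised the nuclear RNAs MALAT1 (log2 fold change 3.65 in NLS) and NEAT1 (2.74) and lowered GAPDH (-1.08) and ACTB (-1.35).

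In the 18 unlabelled construct libraries, which hold polyadenylated RNA recovered without tagging, the members differed in level. Per kilobase of exon, CLK2 averaged 22.6 ± 7.22 CPM (SD, n = 18), CCNL2 17.8 ± 6.73, CLK1 7.56 ± 2.51, CCNL1 7.55 ± 2.61, NKTR 6.61 ± 2.42, CLK4 2.02 ± 0.84 and CLK3 1.68 ± 0.50. CLK2 and CCNL2 overlapped within 1 SD, as did CLK1, CCNL1 and NKTR, and as did CLK4 and CLK3, while these sets stood apart from one another. Without division by length CLK3 averaged 34.4 ± 10.1 CPM, near CLK1 (39.1 ± 13.0) and above CLK4 (16.0 ± 6.63). The annotated exons of CLK3 cover 20443 bp, against 5170 bp in CLK1 and 7924 bp in CLK4. Its place in the low set thus rests on that length. By length of the longest transcript in place of all exons, CLK2 averaged 30.7 ± 9.81 CPM per kilobase, CCNL2 27.4 ± 10.3, NKTR 14.4 ± 5.26, CCNL1 13.7 ± 4.74, CLK1 12.2 ± 4.04, CLK4 4.29 ± 1.78 and CLK3 3.28 ± 0.97, so the order within the middle set turned and both NKTR and CCNL1 then overlapped CCNL2 within 1 SD.

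**Figure D1:**
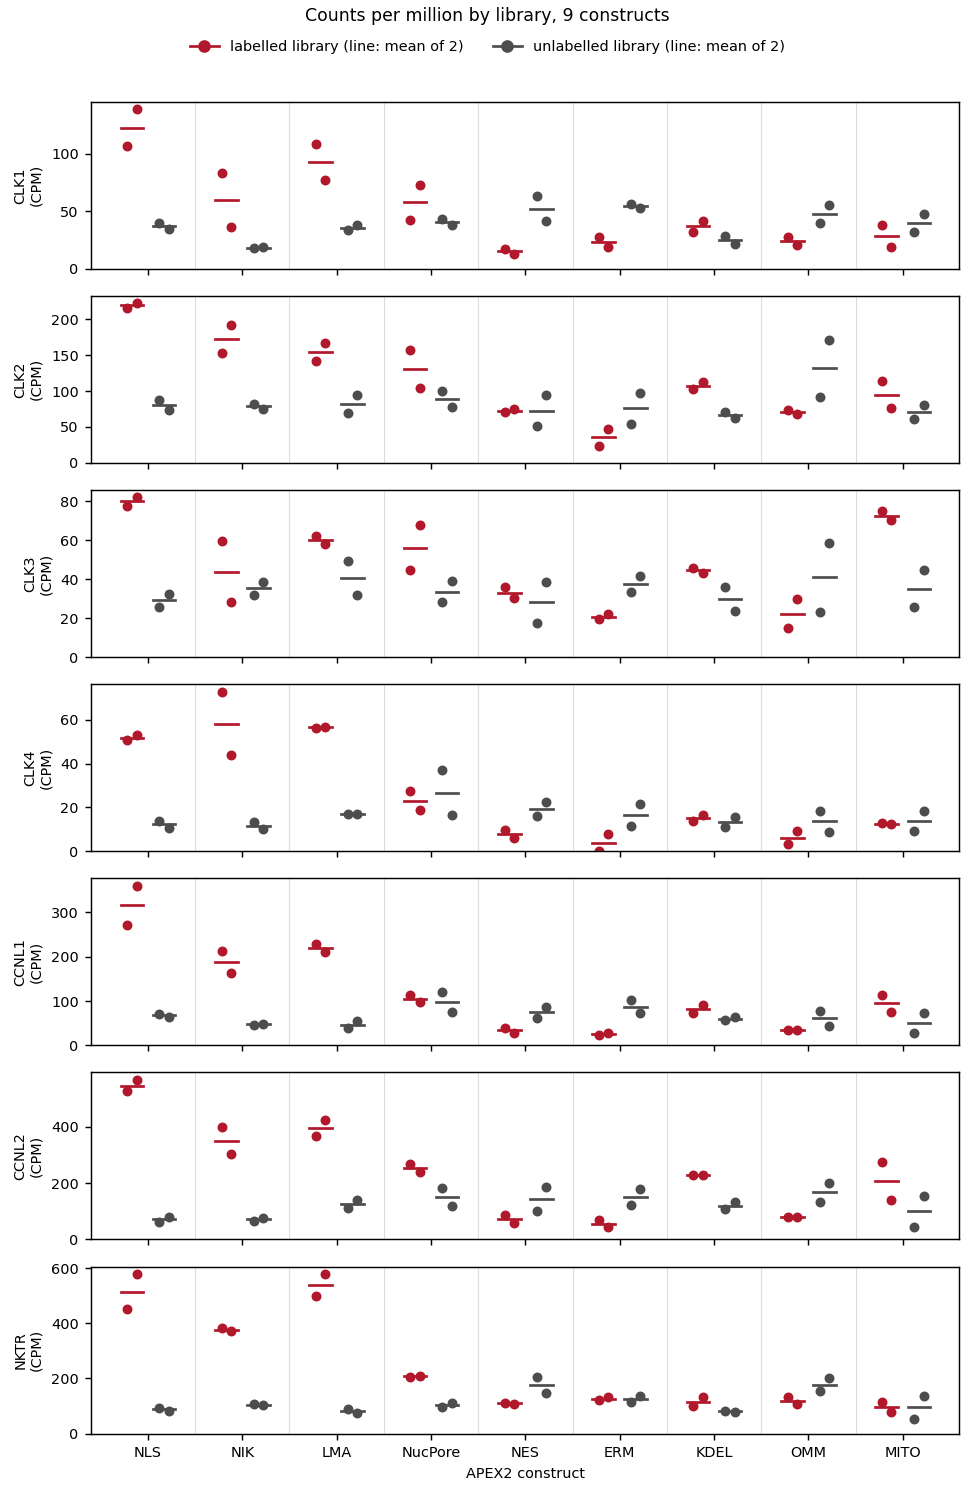
CPM values (linear axes, 1 panel per gene) of the 7 transcripts in each labelled and unlabelled library of the 9 constructs, 2 libraries per group. The NLS labelled libraries lie above all 18 unlabelled libraries for each of the 7 genes, as they do for 11.6% of all genes, and CCNL2 shows the widest gap there (525.1 and 566.2 CPM labelled).

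Nuclear labelling recovered more of these transcripts than unlabelled cells gave. Labelling by NLS raised 6 of the 7, CLK1, CLK2, CLK3, CCNL1, CCNL2 and NKTR, by log2 fold changes of 1.45 to 2.92. Throughout, a call is an adjusted p (Benjamini-Hochberg over all genes of the table) under 0.05 in edgeR's quasi-likelihood test, and values after ± are standard errors of log2 fold changes; 2.78% of 22680 genes were called higher here and 2.42% lower, and the median gene stood at 0.29. CCNL2, the cyclin, had 525.1 and 566.2 CPM in the NLS labelled libraries, against 63.2 and 81.0 CPM in the unlabelled ones. NKTR, the cyclophilin, had 450.5 and 578.5 CPM labelled, against 93.3 and 82.0 CPM unlabelled. CCNL1 had 271.7 and 360.5 CPM labelled, against 71.2 and 63.4 CPM unlabelled. For these 3 genes the labelled libraries lay several times above the unlabelled ones, and log2 fold changes were 2.92 ± 0.39 for CCNL2 (adjusted p = 7.5e-06), 2.55 ± 0.29 for NKTR (4.8e-07) and 2.23 ± 0.34 for CCNL1 (5e-05).

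The kinases were higher in the NLS labelled libraries by less. CLK1 had 106.6 and 139.1 CPM labelled, against 39.6 and 34.8 CPM unlabelled, a log2 fold change of 1.72 ± 0.40 (edgeR adjusted p = 0.0059). CLK2 had 216.1 and 222.8 CPM labelled, against 87.3 and 73.2 CPM unlabelled (1.45 ± 0.33, adjusted p = 0.0044). CLK3 had 77.7 and 82.3 CPM labelled, against 25.7 and 32.6 CPM unlabelled (1.46 ± 0.45, adjusted p = 0.049). None of these groups overlapped, though in 37.8% of all genes both labelled NLS libraries also lay above both unlabelled ones. CLK4 had 50.6 and 53.1 CPM labelled, against 13.9 and 10.5 CPM unlabelled; its value of 2.09 ± 0.86 did not pass the test (adjusted p = 0.19), although its groups did not overlap either, and against the unlabelled libraries of all constructs it was called (1.75, adjusted p = 0.0144). CLK1 was not called without labelled replicate 2 or without either unlabelled library, and CLK3 not without any 1 of the 4. Those fits used a binned dispersion trend. Under that trend CLK3 was not called with all libraries either (1.46, edgeR adjusted p = 0.05032), so its losses cannot be credited to single libraries.

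At the nucleolus 5 of 7 were called higher, where 1.28% of all genes were: CLK1 (log2 fold change 1.72 ± 0.40), CLK2 (1.13 ± 0.32), CCNL1 (2.00 ± 0.34), CCNL2 (2.30 ± 0.38) and NKTR (1.84 ± 0.28). NKTR had 381.6 and 370.9 CPM in the NIK labelled libraries, against 106.7 and 104.0 CPM in the unlabelled ones, and CCNL2 had 397.5 and 302.7 CPM against 65.2 and 76.7 CPM. The labelled libraries of CLK1 lay further apart, with 83.5 and 36.1 CPM against 17.7 and 18.6 CPM unlabelled. CLK4 had 72.7 and 43.8 CPM labelled, against 13.1 and 10.0 CPM unlabelled, and did not pass (2.34 ± 0.87, edgeR adjusted p = 0.13; DESeq2 called it, 2.40, adjusted p = 0.02933). CLK3 overlapped, with 59.5 and 28.1 CPM labelled against 32.0 and 38.7 CPM unlabelled (0.31 ± 0.44). Both NIK labelled libraries are of low complexity, and their part in these values was not tested. CLK1 was not called without labelled replicate 1, where its log2 fold change was 0.94, nor without either unlabelled library, nor against the unlabelled libraries of all constructs (0.69, adjusted p = 0.074), and CLK2 not without unlabelled replicate 2.

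Lamina labelling raised 4 of 7, against 3.67% of all genes. NKTR led, with 498.2 and 580.0 CPM in the LMA labelled libraries, against 87.6 and 75.4 CPM in the unlabelled ones (log2 fold change 2.73 ± 0.29, edgeR adjusted p = 1e-07). CCNL1 had 228.2 and 211.4 CPM labelled, against 38.8 and 54.2 CPM unlabelled (2.24 ± 0.34), and CCNL2 365.0 and 424.1 CPM against 109.7 and 141.3 CPM (1.65 ± 0.37). CLK1 (1.39 ± 0.40, adjusted p = 0.023) was called, but not without any 1 of the 4 libraries. CLK2 (0.91 ± 0.32, adjusted p = 0.08) did not pass by edgeR but did by DESeq2 (0.97, adjusted p = 0.03988). CLK3 (0.57 ± 0.44) and CLK4 (1.73 ± 0.85) did not pass by edgeR or DESeq2, but against the unlabelled libraries of all constructs edgeR called CLK2, CLK3 and CLK4 (0.92, 0.82 and 1.87). For 7 of 7 members both LMA labelled libraries lay above both LMA unlabelled libraries, as did those of 34.3% of all genes, and for CLK1, CLK4, CCNL1, CCNL2 and NKTR they lay above all 18 unlabelled libraries, as for 10.8% of all genes.

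The nuclear pore gave no call by edgeR with its own unlabelled libraries: 0 of 7 members, where 0% of all genes were called. By unadjusted p 2 members were under 0.05, and DESeq2 called 1, NKTR (1.02, adjusted p = 0.04663). Against the unlabelled libraries of all constructs edgeR called CCNL2 (1.11, adjusted p = 0.0072) and NKTR (0.91, adjusted p = 0.0048). NKTR had 206.2 and 208.1 CPM in the NucPore labelled libraries, against 97.6 and 110.0 CPM in its own unlabelled ones (log2 fold change 1.00 ± 0.27, edgeR adjusted p = 0.70). CCNL2 had 267.0 and 238.0 CPM labelled, against 181.3 and 118.0 CPM unlabelled (0.75 ± 0.36). In both genes the labelled libraries lay above all 18 unlabelled ones, as in 2.25% of all genes. CLK1, CLK4 and CCNL1 overlapped between the NucPore groups.

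**Figure D2:**
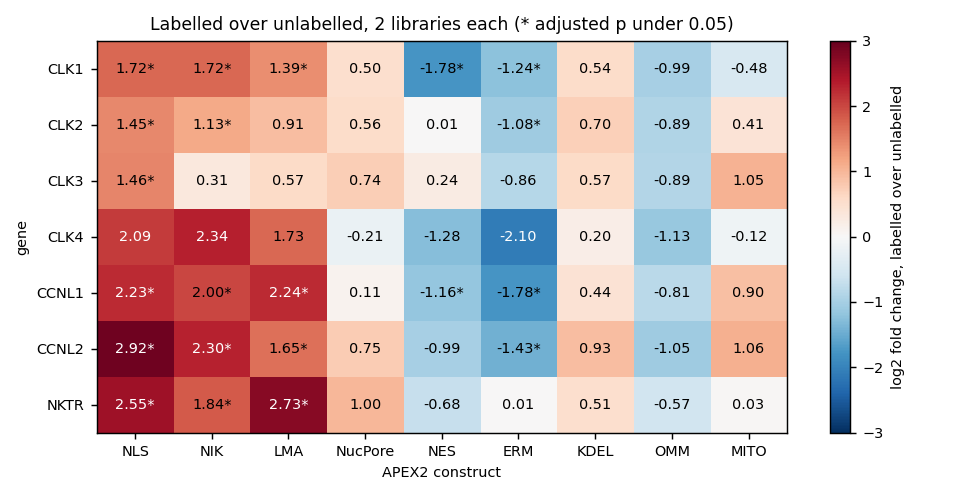
Log2 fold change of labelled over unlabelled libraries (colour and printed value) for the 7 genes (rows) in the 9 constructs (columns), with a star where the edgeR adjusted p is under 0.05. NLS, NIK and LMA hold all 15 calls upward, and NES and ERM all 6 calls downward.

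Biochemical fractionation, which separates nuclei from cytosol without any enzyme fusion, gave 6 of 7 members higher in the nuclear fraction. CPM values are shares of a library, so in these bulk samples fewer cells with a transcript and less of it per cell cannot be told apart. Among all 19115 genes, 34.2% were called higher in the nuclear fraction and 27.8% lower, with a median of 0.11, so a call by itself was common. CCNL2 had 419.1 and 414.4 CPM in the nuclear fraction, against 27.2 and 34.3 CPM in the cytosol (log2 fold change 3.76 ± 0.19). NKTR had 548.0 and 470.4 CPM in the nuclear fraction, against 88.5 and 78.2 CPM in the cytosol (2.61 ± 0.18), and CLK2 189.7 and 222.7 CPM against 37.0 and 42.2 CPM (2.38 ± 0.18). These were the members with the largest log2 fold changes in the fractions. CCNL1 had 250.9 and 199.7 CPM in the nuclear fraction, against 40.0 and 66.5 CPM in the cytosol (2.08 ± 0.24). CLK4 had 64.1 and 53.1 CPM in the nuclear fraction, against 13.5 and 17.5 CPM in the cytosol (1.92 ± 0.23). CLK1 had 144.0 and 122.5 CPM in the nuclear fraction, against 46.8 and 43.9 CPM in the cytosol (1.55 ± 0.18).

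CLK3 was the exception. It had 59.5 and 58.6 CPM in the nuclear fraction, against 34.2 and 54.2 CPM in the cytosol. Its log2 fold change of 0.42 ± 0.23 did not pass (edgeR adjusted p = 0.13). With replicate number added to the model, edgeR called CLK3 (0.45, adjusted p = 0.04523). Of the CLK3 cytosol libraries, 1 came near the nuclear ones. The median over the 7 members was 2.08 in the fractions and 2.09 in NLS labelling, and the 6 calls in the fractions held without each of the 4 libraries in turn.

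**Figure D3:**
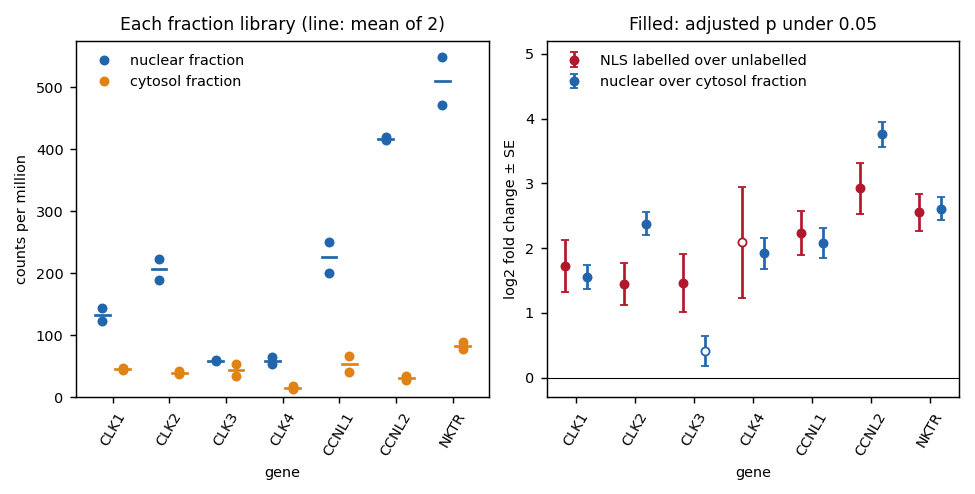
Left, CPM values of the 7 genes in each nuclear and cytosol fraction library, with a line at the mean of 2. Right, log2 fold changes with standard errors for the nuclear over the cytosol fraction and for NLS labelled over unlabelled libraries, filled where the adjusted p is under 0.05. CCNL2 is highest on both scales (3.76 and 2.92), and CLK3 is lowest in the fractions (0.42).

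Labelling in the cytosol lowered CLK1 and CCNL1. By NES labelling 2 of 7 members were called lower, where 2.50% of all genes were lower and 1.38% higher. CLK1 had 17.5 and 13.0 CPM in the NES labelled libraries, against 63.3 and 41.4 CPM in the unlabelled ones (log2 fold change -1.78 ± 0.40, edgeR adjusted p = 0.0058), and it was the only member whose labelled libraries lay below all 18 unlabelled libraries, as did those of 3.88% of all genes. CCNL1 had 38.5 and 28.6 CPM labelled, against 62.6 and 87.5 CPM unlabelled (-1.16 ± 0.33, adjusted p = 0.038). CCNL2 had 85.0 and 59.8 CPM labelled, against 102.4 and 185.4 CPM unlabelled (-0.99 ± 0.36, adjusted p = 0.15), and NKTR 111.8 and 107.8 CPM against 205.3 and 146.5 CPM (-0.68 ± 0.27, adjusted p = 0.22). Both lay below their unlabelled libraries without overlap, as did CLK4 (-1.28 ± 0.84) and 17.1% of all genes. CLK2 (0.01 ± 0.32) and CLK3 (0.24 ± 0.44) overlapped. Without the low-complexity libraries CLK1 (-1.42), CCNL1 (-1.36) and CCNL2 (-1.34, adjusted p = 1.1e-06) were called. Without NES labelled replicate 2 neither CLK1 nor CCNL1 was called; CLK1 was not called without unlabelled replicate 1, and CCNL1 not without unlabelled replicate 2.

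At the endoplasmic reticulum membrane 4 of 7 were lower, where 7.60% of all genes were lower and 5.26% higher. CCNL1 had 23.1 and 27.9 CPM in the ERM labelled libraries, against 102.0 and 73.1 CPM in the unlabelled ones (log2 fold change -1.78 ± 0.34, edgeR adjusted p = 0.00021). CCNL2 had 68.1 and 43.7 CPM labelled, against 122.7 and 178.7 CPM unlabelled (-1.43 ± 0.37), and CLK1 27.4 and 18.9 CPM against 56.5 and 53.1 CPM (-1.24 ± 0.40). NKTR overlapped between the groups, with 121.1 and 133.0 CPM labelled against 114.8 and 137.9 CPM unlabelled (0.01 ± 0.27). CLK2, with 24.2 and 47.7 CPM labelled against 54.7 and 97.3 CPM unlabelled (-1.08 ± 0.32), was called. It was not called without labelled replicate 1 (-0.67) or unlabelled replicate 2 (-0.58), nor without the low-complexity libraries (-0.64, adjusted p = 0.15), and its value was -1.67 without labelled replicate 2. CLK1 was not called without any 1 of the 4 libraries. CLK3 (-0.86 ± 0.44) and CLK4, which had 0.0 and 7.6 CPM labelled against 11.7 and 21.3 CPM unlabelled (-2.10 ± 0.87), did not pass by edgeR; DESeq2 called CLK4 (-2.11, adjusted p = 0.04839).

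The outer mitochondrial membrane, also facing the cytosol, gave values between -0.57 (NKTR) and -1.13 (CLK4). None of 7 was called by edgeR, where 4.99% of all genes were, but 5 had an unadjusted p under 0.05; DESeq2 called 0. Without low-complexity libraries CCNL1 (-1.15, adjusted p = 0.0016) and CCNL2 (-0.73, adjusted p = 0.033) were called lower. Leaving out any 1 of the 4 OMM libraries gave 1 to 3 calls. CCNL1 had 35.3 and 35.2 CPM in the OMM labelled libraries, against 78.5 and 44.7 CPM in the unlabelled ones. Inside organelles there was no call either, apart from fits with other settings. KDEL labelling gave 0 of 7 members by edgeR, with 0% of all genes called, 2 members under 0.05 by unadjusted p and 0 by DESeq2, and values of 0.20 (CLK4) to 0.93 (CCNL2). For 6 of 7 members both KDEL labelled libraries lay above both unlabelled ones, as for 19.1% of all genes, and CLK4 overlapped. For CCNL2 they lay above all 18 unlabelled libraries, as for 0.864% of all genes. With replicate number added to the model, edgeR called CCNL2 in KDEL (0.94, adjusted p = 0.02403). MITO labelling gave 0 of 7, with 1.05% of all genes called, 3 members under 0.05 by unadjusted p and 0 by DESeq2, and values of -0.48 (CLK1) to 1.06 (CCNL2). In MITO, edgeR with replicate number in the model called CCNL1 (1.04, adjusted p = 0.018) and CCNL2 (1.26, adjusted p = 3.5e-06). With no filter on low counts edgeR called CCNL2 (1.08, adjusted p = 0.00068). Against the unlabelled libraries of all constructs edgeR called CLK3 (1.09, adjusted p = 0.029). Both MITO labelled libraries of CLK3 lay above all 18 unlabelled libraries, as for 3.03% of all genes.

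The difference in labelling between a nuclear construct and NES was tested in the same model. Between NLS and NES 4 of 7 members passed, where 1.35% of all genes were higher: CLK1 (3.50 ± 0.57 on the log2 scale), CCNL1 (3.39 ± 0.47), CCNL2 (3.91 ± 0.53) and NKTR (3.23 ± 0.39). The same 4 passed between NIK and NES (3.50, 3.16, 3.29 and 2.52, where 1.68% of genes were higher) and between LMA and NES (3.16, 3.40, 2.64 and 3.41, where 1.89% were higher). These comparisons share the NES libraries. By edgeR CLK4 (3.36 ± 1.21, adjusted p = 0.18), CLK2 (1.44 ± 0.45, adjusted p = 0.10) and CLK3 (1.22 ± 0.62) did not pass between NLS and NES. DESeq2 called CLK4 (3.45, adjusted p = 0.04936) and CLK2 (1.52, adjusted p = 0.0392), and without the low-complexity libraries edgeR called CLK4 (3.54, adjusted p = 0.001642) and CLK2 (1.76, adjusted p = 7.382e-05). Those fits without low-complexity libraries also called CLK2 and CLK4 between LMA and NES and between NIK and NES, where both low-complexity NIK labelled libraries stayed in. Between NucPore and NES, CLK1 (2.28 ± 0.56, adjusted p = 0.044) and NKTR (1.68 ± 0.39, adjusted p = 0.033) were higher, as were 0.516% of all genes. Both lost the call without the low-complexity libraries (adjusted p = 0.064 and 0.05009), where CCNL1 (1.76) and CCNL2 (2.34) gained it, and CLK1 lost it in 6 of 8 fits that each left out 1 library.

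Labelling was lower at the pore than in the whole nucleus for CCNL1 (-2.12 ± 0.47, edgeR adjusted p = 0.026) and CCNL2 (-2.17 ± 0.51, adjusted p = 0.043), 2 of 7 members where 0.282% of all genes were lower. NKTR (-1.56 ± 0.38, adjusted p = 0.056) fell short of the threshold by edgeR, but DESeq2 called it (-1.58, adjusted p = 0.009005), as did edgeR without the low-complexity libraries (-1.61, adjusted p = 0.0007893), and each of the 8 fits that left out 1 library called 3 members. Between NIK and NLS 0 of 7 members passed by edgeR, where 0.534% of genes did, with 0 under 0.05 by unadjusted p and 0 by DESeq2. Between LMA and NLS 0 of 7 passed, where 0.00441% of genes did, with 1 under 0.05 by unadjusted p, CCNL2 (-1.27 ± 0.51), and 0 by DESeq2.

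Under drugs the cyclins were the members called lower in both cytosolic constructs. Of the 6 labelled groups of treated NES and OMM cells, CCNL1 and CCNL2 were lower in 6 of 6. In cycloheximide, NES labelling gave CCNL1 28.3 and 25.6 CPM, against 159.7 and 102.0 CPM unlabelled (log2 fold change -2.28 ± 0.28), and CCNL2 39.5 and 37.6 CPM against 178.1 and 113.3 CPM (-1.92 ± 0.27); these 2 of 7 were called, with 7.77% of 21441 genes lower. In puromycin, NES labelling gave CCNL1 28.2 and 29.2 CPM, against 94.4 and 95.4 CPM unlabelled (-1.73 ± 0.27), and CCNL2 45.0 and 38.9 CPM against 146.1 and 151.9 CPM (-1.83 ± 0.27), again 2 of 7, with 4.58% of genes lower. The labelled libraries of both drugs were nearly alike, and all lay well below their unlabelled libraries. In CCCP, NES labelling gave CCNL1 24.7 and 38.1 CPM, against 79.1 and 52.1 CPM unlabelled (-1.06 ± 0.27), and CCNL2 42.0 and 41.0 CPM against 93.4 and 143.9 CPM (-1.52 ± 0.27), 2 of 7, with 5.08% of genes lower. CCNL1 in CCCP was not called without either labelled library or without unlabelled replicate 1.

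OMM labelling under the same drugs gave 4 of 7 members lower in cycloheximide, where 5.35% of genes were lower, 2 of 7 in puromycin, where 1.18% were, and 2 of 7 in CCCP, where 3.57% were. In cycloheximide CCNL2 had 48.1 and 28.2 CPM labelled, against 203.1 and 207.5 CPM unlabelled (log2 fold change -2.43 ± 0.27), and CCNL1 33.7 and 31.3 CPM against 85.5 and 78.8 CPM (-1.34 ± 0.27). CLK1 had 21.0 and 20.5 CPM labelled, against 33.7 and 87.2 CPM unlabelled (-1.54 ± 0.43), and CLK2 44.2 and 48.0 CPM against 74.6 and 116.1 CPM (-1.05 ± 0.27). Both unlabelled libraries there are of low complexity, and without replicate 2 of them neither kinase was called (CLK1 -0.76, CLK2 -0.76). Without labelled replicate 1 neither was called either, and CLK1 not without labelled replicate 2. In puromycin CCNL1 was at -1.19 ± 0.27 and CCNL2 at -1.59 ± 0.27, and DESeq2 also called CLK2 (-0.98, adjusted p = 0.007672). In CCCP CCNL1 was at -1.36 ± 0.27 and CCNL2 at -1.25 ± 0.26. CCNL1 in puromycin was not called without any 1 of the 4 libraries; in CCCP, CCNL1 was not called without either labelled library and CCNL2 not without labelled replicate 2.

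NKTR was not among the called members. In the 6 labelled groups its log2 fold changes were -0.04 to 0.40, none called by edgeR. In CCCP, NKTR had 178.3 and 232.2 CPM in the NES labelled libraries, against 161.2 and 150.7 CPM unlabelled, and 225.1 and 212.6 CPM in the OMM labelled libraries, against 183.6 and 167.0 CPM unlabelled. In the authors' deposited table NKTR stood at 0.89 (p = 0.00696) for NES in CCCP and 0.94 (p = 0.0108) for OMM in CCCP. Whether those p-values are adjusted, and which unlabelled libraries that table used, is not given in the sources used here. The edgeR values use the unlabelled libraries of the same construct and drug, so the deposited values may rest on other controls. By edgeR with all libraries in the fit CLK3 and CLK4 were not called under any drug, with CLK4 at -1.86 ± 0.66 (adjusted p = 0.064) for NES in cycloheximide. DESeq2 called CLK4 lower there (-1.93, adjusted p = 0.005376) and for NES in puromycin (-1.71, adjusted p = 0.02273). With only that comparison's libraries edgeR called CLK4 for OMM in puromycin (-1.01, adjusted p = 0.03808).

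**Figure D4:**
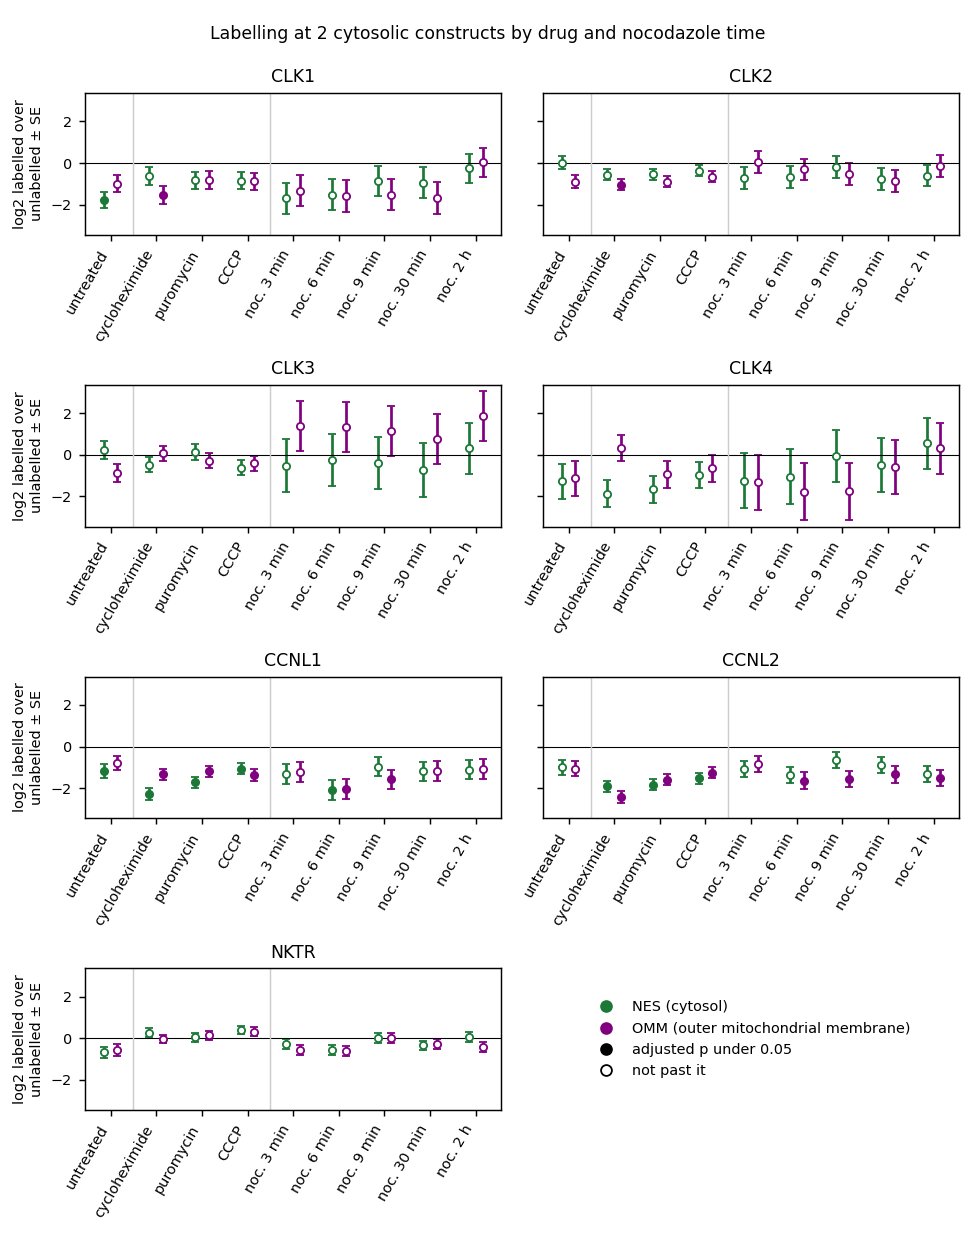
Log2 fold change with standard error of labelled over unlabelled libraries, 1 panel per gene, for NES and OMM cells untreated, in 3 drugs and over nocodazole time, filled where the adjusted p is under 0.05. CCNL1 and CCNL2 lie below 0 in every condition, and NKTR stays between -0.68 and 0.40.

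Levels in unlabelled libraries gave no call between drugs. Between unlabelled libraries (NES and OMM averaged), cycloheximide against puromycin gave 0 of 7 members by edgeR with 8.25% of genes called, 0 members under 0.05 by unadjusted p and 0 by DESeq2. CCCP against puromycin gave 0 of 7 with 0.07% of genes called, 1 under 0.05 by unadjusted p and 0 by DESeq2. For CCCP against cycloheximide there were 0 of 7 by edgeR with 6.76% of genes called, 3 under 0.05 by unadjusted p, and 1 by DESeq2, CCNL1 (-0.57 ± 0.19 by edgeR). The difference in NES labelling between drugs passed for no member: cycloheximide minus puromycin gave 0 of 7 by edgeR (0.163% of genes called, 0 under 0.05 by unadjusted p, 0 by DESeq2), and CCCP minus puromycin 0 of 7 (0% of genes, 0 under 0.05 by unadjusted p, 0 by DESeq2). The widest of those differences were both of CLK3, -0.60 ± 0.52 for cycloheximide minus puromycin and -0.74 ± 0.52 for CCCP minus puromycin.

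Against untreated cells the counts come from separate tables, so drug and set of libraries cannot be told apart. No member was called by edgeR in unlabelled cycloheximide (4.86% of 22078 genes called, 2 members under 0.05 by unadjusted p, 1 by DESeq2), puromycin (4.55%, 0 and 0) or CCCP (2.57%, 1 and 0) libraries against untreated ones. By edgeR CCNL1 in cycloheximide was at 0.57 ± 0.21 and NKTR at -0.34 ± 0.16. The DESeq2 call in cycloheximide was CCNL1 (0.58, adjusted p = 0.0286). NES labelling in a drug minus NES labelling untreated was called for 0 of 7 in cycloheximide (0.956% of genes, 3 members under 0.05 by unadjusted p, 0 by DESeq2), puromycin (0.077%, 1 and 0) and CCCP (0.0815%, 1 and 1). By edgeR CCNL1 was at -1.13 ± 0.42 in cycloheximide. NKTR was at 0.95 ± 0.31 in cycloheximide and 1.09 ± 0.31 in CCCP. All of these were short of the threshold by edgeR, but DESeq2 called NKTR in CCCP (1.11, adjusted p = 0.03819).

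Through nocodazole the cyclins were below 0 in labelled libraries. Each time was set against the unlabelled libraries of 3 and 30 min of the same construct, so the times share their controls. By NES labelling the CCNL1 values were -1.31, -2.09, -0.96, -1.19 and -1.11 at 3, 6, 9 and 30 min and 2 h. CCNL1 at 6 min had 18.2 and 20.5 CPM, against 108.1 and 176.9 CPM (3 min) and 59.5 and 35.5 CPM (30 min) unlabelled, and was the 1 member of 7 called (-2.09 ± 0.49, edgeR adjusted p = 0.015), with 2.38% of 19611 genes lower. DESeq2 also called CCNL2 (-1.43, adjusted p = 0.001395). CCNL1 was not called without either labelled library or without the 3 min unlabelled replicate 2, nor without the low-complexity libraries. At the other NES times 0 of 7 were called by edgeR: at 3 min (3.1% of genes called) 3 members had an unadjusted p under 0.05 and DESeq2 called 2, at 9 min (1.19%) 1 and 0, at 30 min (2.19%) 2 and 1, and at 2 h (3.15%) 2 and 2.

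OMM labelling gave 0 of 7 at 3 min by edgeR (12.9% of genes called in either direction, 3 members under 0.05 by unadjusted p, 2 by DESeq2). At 6 min CCNL1 (log2 fold change -2.04 ± 0.49) and CCNL2 (-1.64 ± 0.40) were lower, 2 of 7, with 3% of genes lower. At 9 min the same cyclins were lower (-1.58 ± 0.48 and -1.55 ± 0.40), 2 of 7, with 2.53% of genes lower. CCNL2 was lower by edgeR at 30 min (-1.34 ± 0.39, 2.09% of genes lower) and at 2 h (-1.50 ± 0.39, 2.89% of genes lower). DESeq2 also called CCNL1 at 30 min (-1.21, adjusted p = 0.009466) and 2 h (-1.11, adjusted p = 0.01786). CCNL2 had 45.2 and 47.4 CPM at 6 min, 48.5 and 49.8 at 9 min, 70.1 and 43.7 at 30 min and 58.9 and 42.8 at 2 h, against 211.9 and 110.9 CPM (3 min) and 123.1 and 134.2 CPM (30 min) unlabelled, with no overlap. Every one of these calls was lost without either labelled library of its time; CCNL1 at 9 min and CCNL2 at 30 min were also lost without the 30 min unlabelled replicate 2, CCNL2 at 30 min without the 3 min unlabelled replicate 1, and CCNL2 at 2 h without low-complexity libraries. The median gene of the OMM comparison stood at 0.70 at 3 min and 0.90 at 6 min, and these values are not taken relative to it.

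CLK3 and CLK4 could not be followed in OMM cells in nocodazole. CLK3 had 0.0 and 14.3 CPM in the unlabelled 3 min libraries and 33.5 and 0.1 CPM at 30 min, and CLK4 had 4.1 and 56.9 CPM at 3 min and 34.1 and 0.0 CPM at 30 min. Those 4 libraries lacked 2.98% to 16.3% of well-expressed genes. By edgeR no labelled nocodazole value of CLK1, CLK2, CLK3, CLK4 or NKTR was called with all libraries in the fit. DESeq2 called CLK1 lower in OMM at 6 min (-1.62, adjusted p = 0.04545) and 30 min (-1.72, adjusted p = 0.0338) and NKTR at 6 min (-0.62, adjusted p = 0.04079). Without the OMM unlabelled 30 min replicate 1, edgeR called CLK4 higher at 3 min (4.42, adjusted p = 0.0145), 6 min (4.01), 9 min (4.01) and 30 min (5.18), each the opposite sign of its value with all libraries. Between times no call was made: 2 h against 3 min of labelled libraries gave 0 of 7 by edgeR for NES (0.0255% of genes called, 0 under 0.05 by unadjusted p, 0 by DESeq2) and for OMM (0.449%, 0 and 0). CLK1 was at 1.45 ± 0.82 in NES and 1.35 ± 0.82 in OMM, with 44.7 and 41.3 CPM at 2 h against 17.6 and 14.0 CPM at 3 min in NES labelled libraries, and 61.9 and 40.9 CPM against 16.4 and 23.8 CPM in OMM labelled ones. Among unlabelled libraries, 30 min against 3 min gave 0 of 7 (3.37% of genes called, 1 under 0.05 by unadjusted p, 1 by DESeq2), with CCNL1 at -0.96 ± 0.37.

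In total RNA without polyA selection, MITO labelling gave 0 of 7 by edgeR (0.63% of 14911 genes called, 1 member under 0.05 by unadjusted p, 0 by DESeq2), with CCNL1 highest (0.99 ± 0.43). Unlabelled total RNA against unlabelled polyA RNA gave 0 of 7 as well (1.96% of genes called, 1 under 0.05 by unadjusted p, 0 by DESeq2), again with CCNL1 highest (1.07 ± 0.43): it had 71.5 and 43.6 CPM in total RNA, against 15.1 and 39.6 CPM in polyA RNA. These libraries held only 2.84 to 7.88 M counts where made from total RNA, of which 26.6% to 83.0% came from the mitochondrial genome.

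Relatives and partners of the members gave unequal counts. Of all genes, 2.78% were called higher and 2.42% lower in NLS, and 34.2% and 27.8% in the fractions. In NES 1.38% were higher and 2.50% lower, and in ERM 5.26% and 7.60%. These shares apply to the list counts here and in the next paragraph. Of 22 other transcripts often described as keeping introns, 18 were higher and 0 lower in NLS labelling (median log2 fold change 1.38, against 2.09 for the 7 members and 0.29 for all genes) and 19 higher and 0 lower in the nuclear fraction (median 1.26). Among them were the helicases DDX17 (2.32 ± 0.19 in NLS) and DDX39B (2.47 ± 0.21), the glycosyltransferase OGT (2.05 ± 0.21) and the splicing factor HNRNPH1 (1.33 ± 0.16). In NES labelling 0 of these 22 were higher and 5 lower (median -0.56), and in ERM labelling 0 higher and 11 lower (median -0.89). SR proteins, the substrates of CLK kinases, had 6 of 14 higher and 0 lower in NLS (median 0.30), led by SRSF11 (1.73 ± 0.24), SRSF6 (1.41 ± 0.17), SRSF5 (1.30 ± 0.27) and SRSF2 (0.78 ± 0.19). In the nuclear fraction 3 were higher and 4 lower (median -0.22), against 34.2% and 27.8% of all genes, with SRSF11 at 1.61 ± 0.19 and SRSF3 at -1.26 ± 0.18. In NES labelling 0 of 14 were higher and 6 lower, and in ERM labelling 0 higher and 7 lower.

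Of 12 tested SR protein and CMGC kinases 1 was higher and 0 lower in NLS, the splicing kinase PRPF4B (0.82 ± 0.20), with a list median of 0.14. In the fractions 1 of 11 was higher and 1 lower, PRPF4B (0.95 ± 0.17) and SRPK2 (-1.12 ± 0.22), against 34.2% and 27.8% of all genes. Of 15 transcription cyclins and their kinases 2 were higher and 0 lower in NLS, CDK10 (2.29 ± 0.55) and CCNT2 (1.54 ± 0.33), and 5 higher and 5 lower in the fractions, where 34.2% of all genes were higher and 27.8% lower. CDK11A, a partner kinase of cyclin L, was at 2.80 ± 1.13 in NLS, not called, and at 2.68 ± 0.29 in the fractions, called. The 16 cyclophilins other than NKTR had 0 higher and 1 lower in NLS, PPIB (-1.06 ± 0.21). In the fractions 3 were higher and 10 lower (median -0.83), against 34.2% and 27.8% of all genes. Among the lower ones were PPIA (-1.16 ± 0.16), PPIF (-1.60 ± 0.17) and PPIL1 (-1.91 ± 0.18). Immediate early and short-lived transcripts, listed for the response to drugs, had 2 of 15 higher in NLS, EGR1 (2.46 ± 0.73) and BTG2 (1.56 ± 0.45). In the fractions 4 of 14 were higher and 1 lower, against 34.2% and 27.8% of all genes. Against untreated cells, unlabelled cycloheximide libraries had 3 of the 15 higher, MYC (0.81 ± 0.14), JUN (1.06 ± 0.21) and EGR1 (1.54 ± 0.33). There 1.25% of all genes and 0 of the 7 members were higher.

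**Figure D5:**
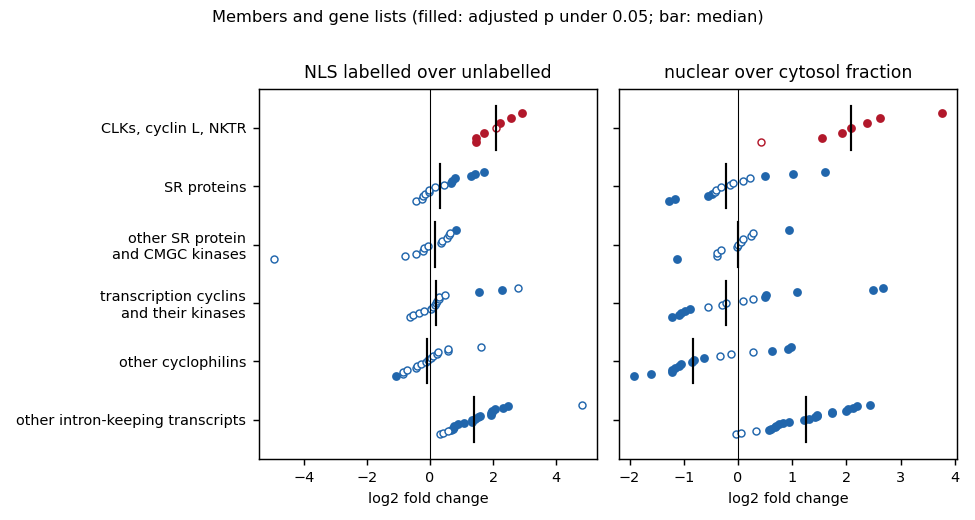
Log2 fold changes of the 7 members and of 5 gene lists in NLS labelling and in the nuclear over the cytosol fraction, 1 point per gene, filled where the adjusted p is under 0.05, with a bar at each median. Members and other intron-keeping transcripts lie to the right (medians 2.09 and 1.38 in NLS), and the other cyclophilins lie to the left in the fractions (median -0.83).

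Across the 9 constructs each member's log2 fold changes were correlated with the mean of the other 6. Pearson r was 0.98 for CCNL2, 0.97 for CCNL1 and CLK4, 0.94 for CLK1, 0.93 for CLK2, 0.88 for NKTR and 0.72 for CLK3. Between single members r ran from 0.57 (CLK3 and NKTR) to 0.97 (CLK4 and CCNL1). The share of other genes that reach such r was not counted, so these values do not set the members apart from other genes. Genes with clone-style names or only an identifier were left out of the ranking that follows. Of 11375 remaining other genes whose mean reached 5 CPM, the 8 most like the mean of the 7 members had r of 0.983 to 0.992. These were RPAIN, HNRNPDL, LUC7L3, CNPY2, LUC7L, DDX39B, PI4KAP1 and GOLGA8A. Size differed among them: GOLGA8A was at 2.37 in NLS and -2.23 in ERM, RPAIN at 1.13 and -1.45, and CNPY2 at 0.41 and -0.89. With 9 points that share their libraries in part, 1 of the 8 was also among the 8 highest by Spearman's rho and 5 among the 100 highest.

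In the authors' deposited table for the constructs, log2 values in NLS were 2.29 for CCNL1, 2.20 for NKTR, 2.19 for CCNL2, 1.73 for CLK4 (p = 0.000306), 1.68 for CLK1, 1.43 for CLK2 and 1.25 for CLK3. NKTR stood at 2.30 in LMA in the authors' deposited table, above its NLS value, and CLK4 at 1.92 in NIK and 1.90 in LMA. Against each construct's own unlabelled libraries edgeR gave CLK4 2.09 ± 0.86 in NLS (not called), and against the unlabelled libraries of all constructs 1.75 (adjusted p = 0.0144). For CLK1 in NIK the authors' deposited table gave 0.67 (p = 0.200), beside 0.69 (adjusted p = 0.07422) against the unlabelled libraries of all constructs and 1.72 ± 0.40 against its own. Which unlabelled libraries the authors' deposited table used is not given in the sources used here; its headers carry the tag 18C, whose meaning they do not state.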

How the data were processed

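RNA of HEK 293T cells was measured in 97 libraries, 2 per group and 1 repeat. The authors deposited counts of reads per gene in 5 tables, and 3 tables of their own comparisons with log2 fold changes and p-values, per the file headers; the headers do not say whether those p-values are adjusted. The submitters' processing notes name Trimmomatic, STAR, HTSeq, SAMtools, bedtools, DESeq2 and GRCh38; versions, annotation and strand setting of the counting are not given in the sources used here. Per the labels' protocols, libraries were stranded and polyA-selected, except MITO total RNA, and the APEX libraries were made from enriched RNA.

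From the counts, each table was fitted with edgeR 4.0.16 (R 4.3.3, limma 3.58.1): genes filtered by filterByExpr, TMM scaling, 1 quasi-likelihood model of group means with a trended dispersion, and Benjamini-Hochberg adjustment over all genes, with a call at an adjusted p under 0.05. Standard errors are the log2 fold change divided by the square root of F. CPM values of members are TMM-scaled within a table and are not compared across tables. CPM of markers and of neighbouring genes, and the cut at 5 CPM, use plain library totals, so they are on another scale. Each test has 2 libraries per group, which limits precision; the scripts were tested on simulated data. Nocodazole times were set against the mean of the unlabelled 3 and 30 min libraries, drugs against untreated cells in a joined table, and 1 repeat sequencing library was left out. Of 60675 identifiers, 36149 were named by the deposited tables, 21296 by GENCODE 29 alone, and 3230 had no name. DESeq2 1.42.0, other scaling and filters, all unlabelled libraries and the libraries of 1 comparison alone were alternatives. So were a replicate block, leaving out libraries and a binned dispersion trend, the last chosen after seeing the data. Except for the fractions and MITO total RNA, the binned trend was also used with the replicate block, with 1 comparison's libraries and with libraries left out. Calls lost or gained in those fits can thus come in part from the trend. Python 3.11.15 (pandas 2.3.3, numpy 2.4.6, scipy 1.17.1, matplotlib 3.10.9) made summaries and figures.

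The members, gene lists and tests were chosen with earlier results of these data known. All 7 members were named in every comparison, with 5 landmark RNAs, up to 4 genes of each list by smallest p in NLS or the fractions, and the 8 genes most alike across constructs.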

Additional observations from a re-analysis of the deposited data

Results flagged for a closer look

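Labelling differed between constructs, tested as the difference itself in 1 model of all 36 libraries with edgeR, in 16 member values. NLS minus NES labelling was 3.50 for CLK1, 3.39 for CCNL1, 3.91 for CCNL2 and 3.23 for NKTR on the log2 scale. NIK minus NES labelling was 3.50 for CLK1, 3.16 for CCNL1, 3.29 for CCNL2 and 2.52 for NKTR. LMA minus NES labelling was 3.16 for CLK1, 3.40 for CCNL1, 2.64 for CCNL2 and 3.41 for NKTR. NucPore minus NES labelling was 2.28 for CLK1 and 1.68 for NKTR. NucPore minus NLS labelling was -2.12 for CCNL1 and -2.17 for CCNL2. All comparisons with NES share its 4 libraries, 1 of which, unlabelled replicate 1, lacked 3.37% of well-expressed genes; its part in these values was not tested beyond leaving it out.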

How the results depend on the processing

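Of 64 called member values, DESeq2 lost 0 and kept the direction of 64, and called 28 more. Scaling by relative log expression (RLE) lost 0 and added 1 call, the binned dispersion trend lost 1 and added 0, no filter on low counts lost 3 and added 11, and the replicate block lost 7 and added 18. With only the libraries of a comparison 26 of 58 were lost and 8 added, with the unlabelled libraries of all constructs 2 of 21 lost and 10 added, and without low-complexity libraries 5 of 26 lost and 12 added; a group whose libraries are all of low complexity kept them there. Leaving out 1 library kept the direction of 334 of 334 called values and lost 64. The causes were not tested.

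Counts of members called that moved by more than 1.5 times were as follows; smaller moves are not listed. With only the comparison's libraries they were 0 in NIK, 0 in NES, 2 in ERM, 1 in NIK minus NES, 0 in NucPore minus NES, 1 in NucPore minus NLS, 1 in NES with CCCP, 0 in OMM with cycloheximide, 5 in OMM with puromycin, 0 in NES nocodazole 6 min, and 1, 0, 0 and 0 in OMM nocodazole 6, 9 and 30 min and 2 h. With the replicate block they were 1 in NucPore, 4 in NES, 1 in KDEL, 2 in OMM, 2 in MITO, 1 in LMA minus NLS, 1 in NES with CCCP, 1 in OMM with puromycin and 1 in OMM nocodazole 9 min. Replicate numbers share only a number: replicate differences correlated between groups at -0.17 to 0.148. With all unlabelled libraries they were 7 in LMA, 2 in NucPore, 1 in OMM and 1 in MITO. With DESeq2 they were 1 in NucPore, 1 in CCCP against cycloheximide, 1 in cycloheximide against untreated, 1 in NES CCCP minus untreated, 2, 2, 1 and 2 in NES nocodazole 3, 6 and 30 min and 2 h, 2, 4, 3 and 2 in OMM at the same times, and 1 in unlabelled nocodazole 30 against 3 min. With no filter they were 2 in OMM, 1 in MITO, 0 in NES nocodazole 6 min and 1 and 0 in OMM nocodazole 9 and 30 min. Without low-complexity libraries they were 2 in OMM, 0 in NES nocodazole 6 min and 0 in OMM nocodazole 2 h, and with RLE scaling 2 in NES nocodazole 6 min.

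Leaving out 1 library in turn gave 3 to 6 called members in NIK, 0 to 1 in NucPore, 0 to 3 in NES, 2 to 4 in ERM, 1 to 3 in OMM, 0 to 3 in MITO, 0 to 1 in LMA minus NLS, 1 to 2 in NES with CCCP, 2 to 4 in OMM with cycloheximide, 1 to 1 in OMM with puromycin, 0 to 2 in OMM with CCCP, 0 to 3 in CCCP against cycloheximide, 0 to 1 in cycloheximide against untreated, 0 to 2 in NES cycloheximide minus untreated, and 0 to 1 each in NES puromycin minus untreated, CCCP against untreated and NES CCCP minus untreated. It gave 0 to 2 in NES nocodazole 6 min, 0 to 1 in NES 2 h, 0 to 3, 0 to 4, 0 to 4, 0 to 4 and 0 to 3 in OMM nocodazole 3, 6, 9 and 30 min and 2 h, 0 to 2 in unlabelled nocodazole 30 against 3 min, and 0 to 1 in both MITO total RNA comparisons. CLK4, not called in OMM nocodazole with all libraries in the edgeR fit, reversed and was called without the OMM unlabelled 30 min replicate 1 (adjusted p = 0.0145, 0.0239, 0.0251, 0.00466 and 0.00253 in the comparisons below): its values ran from -1.83 to 4.42 at 3 min, -2.25 to 4.01 at 6 min, -2.45 to 4.01 at 9 min, -1.08 to 5.18 at 30 min, and -5.56 to 1.63 in unlabelled 30 against 3 min.

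Counts over all genes moved by over 1.5 times in 47 of 49 comparisons with DESeq2 and in 41 of 48 with only the comparison's libraries. In NLS 1179 genes were called, 2391 with DESeq2, 4852 with only its libraries, 5994 with all unlabelled libraries and 594 to 1017 without 1 library. In NES 880 were called, 1814 with DESeq2 and 0 with only its libraries.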
